A study of Rattus norvegicus with 20 samples.

Results

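Distal peaks of the NF-kB p65 subunit, those lying 2 kb or more upstream of every transcription start listed for them, made up 36686 of the 108718 peaks that the authors called on 20 promoter arrays of rat liver, or 33.7%. A peak was counted once per array by its identifier, and it was taken as distal when the deposited distance between start and peak was -2000 bp or lower for each start it was paired with. Negative distances are upstream, and the deposited distance runs from the start to the centre of the peak. The distal stretch held 36.1% of the 673523 tiled probes that could be placed against a start, so its share of the peaks was 0.934 of its share of the probes.

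The livers came from male wild-type Sprague Dawley rats 8 to 10 weeks old. One diet group drank a liquid diet in which ethanol supplied 36% of the calories for 5 weeks, and pair-fed littermates received carbohydrate calories in place of ethanol. All animals then lost 70% of the liver by partial hepatectomy, so the operation is shared by both diets. The 0h samples are the left lateral and median lobes removed at surgery, and the 1h and 6h samples are the remnant lobes, so time and lobe cannot be told apart in any comparison with 0h. Each diet has 3 arrays of 0h, 3 of 1h and 4 of 6h. The samples are pieces of whole liver with all its cell types. Of the 16 animals numbered in the array identifiers, 4 gave an array at 0h and another after surgery. The tests against 0h did not pair these arrays.

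NF-kB is a family of dimeric transcription factors that inhibitor proteins hold in the cytoplasm until cytokines or other stress signals free them to enter the nucleus. The p65 subunit, also called RelA, carries the activation domain of the most common dimer. In the liver the pathway is known for guarding hepatocytes against cytokine-induced death and for the early response of resident macrophages and hepatocytes to tissue loss. Distal upstream DNA can hold enhancers, and the array covers it only as far as its promoter tiling reaches.

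The arrays carried between 2874 and 9387 peaks each, all at a false discovery rate of 0.2 or lower in the authors' lists. By their form the array identifiers fall into 4 sets, called array runs here. No label says what these sets are. One run held only 0h arrays, 5 of them, and the largest held 11 arrays, all from 1h and 6h. The array labelled ethanol 0h replicate 2 stood apart: over 46793 distal windows of 500 bp its signal correlated at 0.85 with ethanol 1h replicate 1, and on average at 0.59 with the 1h arrays and 0.17 with the other 0h arrays. It shares its slide with ethanol 1h replicate 1 and carbohydrate 1h replicate 1, and several results at 0h are also given without it, a choice made after the data were seen. The deposited log2 ratios were negative inside the authors' peaks, so every ratio was multiplied by -1 and each array was centred on its median. Higher p65 signal as the positive direction is therefore likely, on the basis of the peaks alone. With the deposited sign every rise below is a fall of the same size.

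Distal peaks lay between -2000 and -4270 bp, with a median of -3055 bp. Nearly all lay within the first 2 stretches of 1000 bp beyond the bound: 17526 peaks (47.8%) were nearer than -3000 bp, 16963 (46.2%) were nearer than -4000 bp, and 2197 (5.99%) were farther. Their median length was 551 bp, with a range from 130 to 3550 bp. The score that the authors' peak caller gave each peak ran from 0.234 to 1.75, and the median was 0.480 in the nearest stretch, 0.477 in the middle stretch and 0.510 beyond it. The farthest peaks were also the shortest, at a median of 353 bp against 558 bp in both other stretches. The part of the tiling edge in this was not tested. Most distal peaks, 95.7%, were paired with a single start, against 89.8% of the other peaks. The bound itself marked no step in these values. The 972 peaks within 50 bp inside it had a median score of 0.488 and a median length of 555 bp, and the 941 within 50 bp outside it had 0.482 and 559 bp. On the same array, 34.7% of the distal peaks shared their tiled region with a nearer peak, from 17.9% to 60.2% of them by array.

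Distal peaks scored slightly lower than the rest of the peaks of the same array. The median score was 0.480 ± 0.102 for distal peaks and 0.497 ± 0.105 for other peaks (SD, n = 20 arrays). The difference averaged -0.0172 and was negative on 20 of 20 arrays (sign-flip permutation test, two-sided, adjusted p = 2.7e-05 over 4 measures). The median false discovery rate was higher by 0.0165, at 0.0899 ± 0.0141 against 0.0734 ± 0.0143, with 19 arrays higher and none lower (permutation test, adjusted p = 2.0e-05). Of the distal peaks 32.7% had a rate of 0.05 or lower, against 40.2% of the others. Each distal peak overlapped a peak on 2.19 other arrays on average, against 2.83 for other peaks. The mean was lower for distal peaks on 19 of 20 arrays (permutation test, adjusted p = 2.0e-05). Each array's mean is counted over the peaks of the other arrays, so the 20 differences are not independent. This p is therefore given as a description only. Median length differed by -3.02 bp, which did not pass the test (permutation, adjusted p = 0.44), and the sign of that difference depended on which peaks were kept: it was 26.3 bp in favour of distal peaks among those with a rate of 0.05 or lower (permutation, adjusted p = 0.00028).

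The distal share of the peaks was highest at 6h in both diets. With carbohydrate the arrays of 0h held 32.3%, 19.1% and 33.9%, those of 1h 33.8%, 36.1% and 31.1%, and those of 6h 36.2%, 36.0%, 37.5% and 37.2%. With ethanol the arrays of 0h held 34.2%, 32.5% and 40.2%, those of 1h 36.1%, 23.7% and 27.6%, and those of 6h 39.7%, 38.4%, 37.6% and 40.8%. The 8 arrays at 6h stayed within 36.0% to 40.8%, while the 6 at 0h and the 6 at 1h spread from 19.1% to 40.2% and from 23.7% to 36.1%. Over both diets the share was 37.9% ± 1.65 at 6h (n = 8) and 31.4% ± 4.96 at 1h (n = 6), a difference of 6.54 percentage points (exact permutation test within diets, two-sided, p = 0.0016, adjusted p = 0.041 over 25 comparisons). It was the only one of the 25 between-group peak comparisons under 0.05 after adjustment. Against 0h (32.0% ± 6.94, n = 6) the 6h share was higher by 5.91 points, with an adjusted p of 0.061 by the same exact test. Without ethanol 0h replicate 3 that difference was 7.05 points (exact permutation, adjusted p = 0.024), without carbohydrate 0h replicate 2 it was 3.58 (0.12), and without ethanol 0h replicate 2 it was 5.12 (0.11).

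The call on 6h against 1h is narrow. It was lost when any 1 of 11 of the 14 arrays was left out, with differences from 5.18 to 8.28 points and adjusted p up to 0.071 in the same exact test. Within the largest array run the difference was 8.40 points (exact permutation, adjusted p = 0.16), a subset with fewer arrays. The direction was the same in each of these settings.

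**Figure D1:**
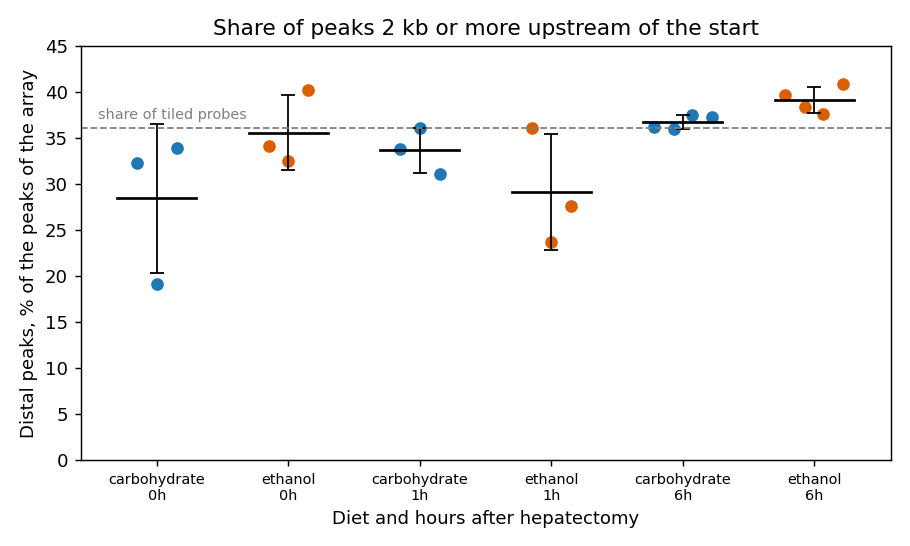
Distal peaks as a percentage of the peaks on each array (y axis), by diet and hours after hepatectomy (x axis). Points are arrays, thick lines are group means, bars are 1 SD, and the dashed line marks the 36.1% of tiled probes that are distal. All 8 arrays at 6h lie between 36.0% and 40.8%, whereas the arrays at 0h and 1h reach down to 19.1% and 23.7%.

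Placed against the tiling, distal peaks were denser at 6h along most of the stretch. A density of 1 means that a stretch holds the same share of an array's peaks as of its probes. Between -3500 and -3000 bp the density was 1.12 ± 0.0521 at 6h (n = 8), 0.857 ± 0.144 at 1h (n = 6) and 0.886 ± 0.201 at 0h (n = 6). Between -4000 and -3500 bp it was 1.24 ± 0.0942, 0.975 ± 0.154 and 0.978 ± 0.254 in the same order. The 0h densities of these stretches were 0.872 ± 0.222 and 0.987 ± 0.283 (n = 5) without ethanol 0h replicate 2. Outside the distal stretch no single order held: between -1000 and -500 bp the density was 0.897 ± 0.0893 at 6h, 1.32 ± 0.288 at 1h and 1.63 ± 0.340 at 0h (1.69 ± 0.347 without that array), and between 0 and 500 bp it was 1.49 ± 0.126, 1.10 ± 0.297 and 0.786 ± 0.229 (0.720 ± 0.181 without it). At the far edge, between -4500 and -4000 bp, it was low at all times, from 0.412 to 0.508, and farther out it was 0. Peak centres are set against probe positions here, and the centre of a peak at the tiling edge lies inward of the last probes. These densities were not tested separately.

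**Figure D2:**
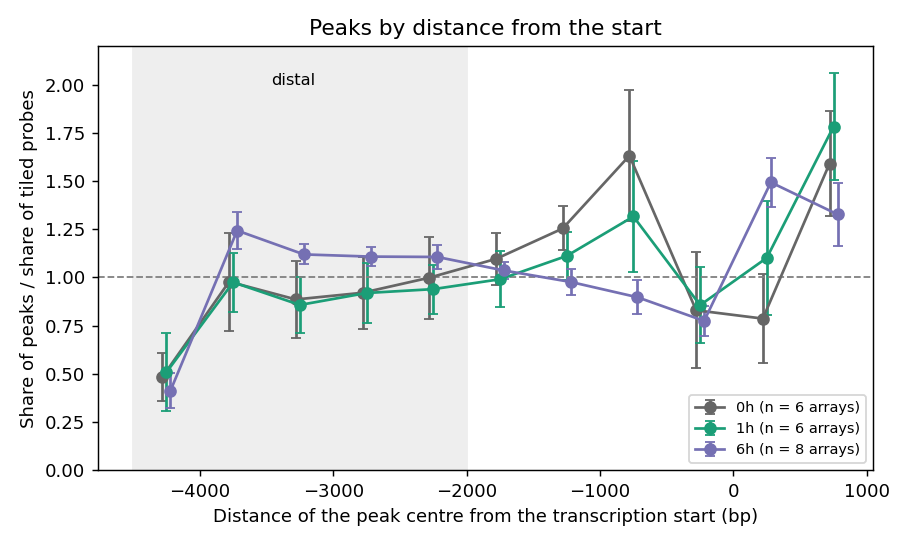
Density of peaks along the promoter: share of an array's peaks divided by the share of tiled probes (y axis) in stretches of 500 bp, by distance of the peak centre from the start in bp (x axis). Points are means over the arrays of a time, bars are 1 SD, and the shaded stretch is distal. From -4000 to -2000 bp the 6h means lie between 1.11 and 1.24 and the 0h and 1h means between 0.857 and 0.998.

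No difference in the number, score or length of distal peaks between times or diets passed the test. Distal peaks numbered 1455 ± 558 per array at 0h, 2032 ± 318 at 1h and 1971 ± 458 at 6h. The increase of 577 from 0h to 1h had an adjusted p of 0.19 in the exact permutation test. Their median score was 0.448 ± 0.133 at 0h, 0.542 ± 0.104 at 1h and 0.457 ± 0.0540 at 6h, with adjusted p from 0.19 to 0.98 for the 3 differences (exact permutation). Without ethanol 0h replicate 2 the 0h score was 0.395 ± 0.0397 (n = 5), the difference from 0h to 1h was 0.1497 in place of 0.0946 and that from 0h to 6h 0.0645 in place of 0.0094 (exact permutation, adjusted p = 0.11 and 0.095). Leaving out each array in turn, the first of these ranged from 0.0568 to 0.1497. The widest contrast in length, 581 bp ± 41.9 at 6h against 532 bp ± 32.0 at 0h, had an exact permutation p of 0.035 and an adjusted p of 0.15. Ethanol and carbohydrate arrays differed by 167 distal peaks, 0.00029 in median score and -4.96 bp in median length over all times (exact permutation, adjusted p = 0.62, 1.0 and 0.97).

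The difference in distal share between ethanol and carbohydrate over all times, 1.67 points, did not pass the test (exact permutation, adjusted p = 0.70). It averages differences of unlike sign at 0h, 1h and 6h, given below. At 6h alone the 4 ethanol arrays, at 39.1% ± 1.41, all lay above the 4 carbohydrate arrays, at 36.7% ± 0.748. That gap of 2.39 points has an exact permutation p of 0.029, the smallest that 4 against 4 arrays can give, and an adjusted p of 0.14. With 3 arrays a group the smallest p is 0.10, so the diets could not be separated at 0h (7.14 points) or 1h (-4.52 points).

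Distal peaks appeared in 9459 of the 14723 tiled regions, or 64.2%, but few regions held them on many arrays. In 2402 regions a distal peak was called on a single array. In 367 regions a distal peak, not always at the same site, was called on at least 10 arrays and in 17 on at least 15. More regions held nearer peaks on many arrays: 1272 on at least 10 arrays and 101 on at least 15. The nearer stretch held more of the tiled probes and 72032 peaks against 36686 distal ones, and the region counts were not scaled for this. Of the individual distal peaks 23.7% overlapped no peak of another array by at least 50% of both lengths, against 18.5% of the other peaks.

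**Figure D3:**
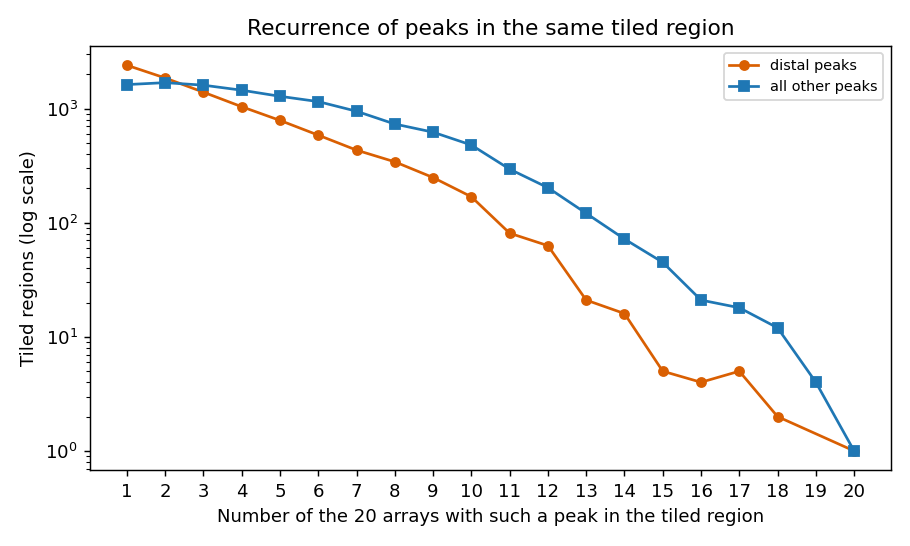
Number of tiled regions (y axis, log scale) by the number of the 20 arrays that carried a distal peak (circles) or any other peak (squares) in that region (x axis). The distal curve falls faster: 367 regions reach 10 arrays with a distal peak and 1272 with another peak. Distal peaks are fewer, 36686 against 72032 other peaks, and the counts are not scaled for this.

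Recurrence differed with time, and how it went with array run was not the same at each time. Pairs of 6h arrays shared 23.6% of their distal peaks on average, pairs of 1h arrays 18.1% and pairs of 0h arrays 12.4% (15.1% without ethanol 0h replicate 2). Arrays of 1h and 6h shared 7.47%. Within a run, arrays of the same time shared 21.5% and arrays of different times 12.4%, or 10.5% without that array. Between runs the shares were 15.1% and 6.88%, or 17.8% and 6.99% without it. These shares pool the times. Pairs of 6h arrays shared 23.3% within a run and 24.4% between runs, and pairs of 1h arrays 25.1% and 12.1%. Pairs of 0h arrays shared 15.1% and 7.10%, where all pairs between runs include ethanol 0h replicate 2. Arrays of 0h and 1h within a run shared 39.0%, over 4 ordered pairs that all include that array. These are descriptions, since the pairs share arrays. The probe signal behaved likewise at distal peaks read on arrays that had no part in the call. It averaged 0.55 on the array that called the peak, 0.27 on the other arrays of its group, 0.26 on arrays of the other diet at the same time and 0.11 on arrays of other times, in sign-turned log2 units over 20 arrays. For other peaks these levels were 0.57, 0.32, 0.31 and 0.14. Without ethanol 0h replicate 2 the 4 levels at distal peaks were 0.53, 0.28, 0.28 and 0.10.

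The tiled region of Ado, which encodes a thiol dioxygenase, was the one with a distal peak on 20 of 20 arrays. Here and below, arrays are counted for any distal peak in the tiled region, not for one site. Positions and signals are those of the region's most recurrent distal peak, the one that overlapped peaks on the most other arrays. For Ado this peak lies on chromosome 20 from 21873063 to 21873713, at a distance of -3752 bp. These are the coordinates of the files, whose genome build is not given in the sources used here. Its signal was 0.73, 0.54 and 0.56 at carbohydrate 0h, 0.80, 0.76 and 0.72 at carbohydrate 1h, and 0.59, 0.74, 0.59 and 0.66 at carbohydrate 6h. In ethanol-fed rats it was 0.67, 0.62 and 0.51 at 0h, 0.79, 0.65 and 0.84 at 1h, and 0.68, 0.59, 0.50 and 0.78 at 6h. Every array was high, between 0.50 and 0.84, and the groups overlapped.

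The naming rule took 15 of the 17 regions with a distal peak on at least 15 arrays, Ado included. Shc3, which encodes a signalling adaptor, and the stretch shared by Mnat1, an assembly factor of the cyclin-activating kinase, and Six4, a homeobox factor, each had one on 18 arrays. The most recurrent Shc3 peak is on chromosome 17 from 19517920 to 19518764, and its signal ran from 0.16 to 0.90 over the arrays. Amhr2, a hormone receptor, Pde4d, a phosphodiesterase that degrades cyclic AMP, Nfia, a transcription factor, Fgf6, a fibroblast growth factor, and 1700013D24Rik had one on 17 arrays. Gpn1, Notum, which encodes an enzyme that inactivates Wnt ligands, Vipr2, the receptor of a neuropeptide, and Txndc2 had one on 16. Caskin1 with Mlst8, Sertad4 and Psmb4, a proteasome subunit, had one on 15. The Amhr2 signal ran from 0.36 to 1.16, with a mean of 0.72 ± 0.20 (SD, n = 20 arrays). At Pde4d the carbohydrate 6h arrays, at 0.76, 0.71, 0.84 and 0.83, were all above the carbohydrate 1h arrays, at 0.17, 0.36 and 0.01. With ethanol the arrays overlapped there, at 0.59, 0.38, 0.67 and 0.43 at 6h and 0.32, 0.49 and 0.83 at 1h. At Notum a distal peak was called on all 6h arrays and all 1h arrays but on 2 of 6 at 0h.

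Some regions held distal peaks on all arrays of one time and on none of another. On all 6 arrays of 1h and none of the 8 of 6h there were 51 regions, and on all 8 of 6h and none of 1h there were 40. By the same rule applied to peaks at any distance, 1.36% and 2.1% of the 13475 tiled regions with a peak met these patterns. The opposite ends of the 0h comparisons held 14 regions with distal peaks on all 1h arrays and no 0h array, where the rule over all peaks gave 0.215%, and 13 with all 6h and no 0h array, where it gave 0.364%. Without ethanol 0h replicate 2 the first of these rose to 60 regions and the second was 14. A single region, at Rab11fip2, had distal peaks on all 0h arrays and on none at 6h (0.0891% for all peaks), and 4 did without that array. None had them on all 0h arrays and on none at 1h (0.0223% for all peaks), and 7 did without it.

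The regions with all 1h arrays and no 6h array, ranked by score, began with Arhgef1 and Plekhg2, both guanine nucleotide exchange factors, Zfp36, whose product speeds the decay of cytokine mRNAs, Errfi1, a feedback inhibitor of the EGF receptor, and Tat, the liver enzyme tyrosine aminotransferase. Plekhg2 and Zfp36 lie close together on chromosome 1, with distal peaks from 83485404 to 83486057 and from 83492514 to 83493274. The Zfp36 peak signal was 0.83, 0.67 and 0.47 at carbohydrate 1h and 1.23, 0.64 and 0.37 at ethanol 1h. At 6h it was -0.50, -0.12, 0.01 and -0.14 with carbohydrate and -0.12, -0.40, -0.29 and -0.15 with ethanol. At 0h it was -0.03, 0.06 and -0.30 with carbohydrate and -0.08, 1.22 and -0.26 with ethanol. The gap between 1h and 6h is part of the rule that chose these regions and is given as a description, and the single high 0h array is ethanol 0h replicate 2. These 5 regions had distal peaks on 1 or 2 arrays of 0h. Its signal was also 1.44 at Errfi1, 1.24 at Tat and 1.94 at Arhgef1, where the other 0h arrays lay between -0.47 and 0.38. Distal peaks on all 1h arrays and no 0h array began with the metallothionein pair Mt1 and Mt2A, then Rasgrp2, Plce1, Tcea3 and Atp1b1.

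The regions with all 6h arrays and no 1h array began with Or10n7, an olfactory receptor, Scn3a, a neuronal sodium channel, Calcb, a neuropeptide, Smok, a kinase gene, and Cdh8, a cadherin. At Or10n7 the peak signal at 6h was 0.79, 0.70, 0.69 and 0.70 with carbohydrate and 0.58, 0.53, 0.56 and 0.70 with ethanol. At 1h it was 0.10, 0.24 and 0.04 with carbohydrate and -0.16, -0.17 and -0.35 with ethanol. Here too the rule fixed the gap between the times, and the 5 regions had distal peaks on 1 or 2 arrays of 0h. Those with all 6h arrays and no 0h array were led by Ube2r2, a ubiquitin-conjugating enzyme, Ucp1, the uncoupling protein of brown fat, Tgap1, Or52l1b and Gabra2, a GABA receptor subunit, and these 5 had no distal peak at 1h either.

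The 5 highest scores among distal peaks came from 2 arrays of one slide. Ethanol 0h replicate 2 gave 1.75 at Tmem30b, 1.74 at Rwdd2b and Usp16, 1.67 at Arhgef1 and 1.60 at Plekhg2, and carbohydrate 1h replicate 1 gave 1.61 at Slc8a2. The Slc8a2 peak overlapped a peak on 1 other array, and the Plekhg2 peak on 6.

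Signal was then compared in fixed windows of 500 bp with limma over all 136025 windows and Benjamini-Hochberg adjustment over all of them. The window bounds were set without the peaks, but a window was classed as distal only through the starts that peaks list, and the sign of the ratios rests on the peaks. Between 6h and 1h, 7294 of the 46793 distal windows passed in carbohydrate-fed rats, 4478 rising and 2816 falling, and 5001 passed in ethanol-fed rats, 3461 rising and 1540 falling. Over all windows 8.3% rose and 7.02% fell with carbohydrate, and 6.16% rose and 7.07% fell with ethanol. The distal windows held 9.57% rising and 6.02% falling with carbohydrate, against 7.81% and 7.79% of the other windows. With ethanol they held 7.40% and 3.29%, against 5.51% and 9.63%. A fit of the largest array run alone was chosen after the data were seen. There 3531 distal windows rose and 2405 fell with carbohydrate, and 6066 rose and 3062 fell with ethanol. The number called depended on single arrays: with carbohydrate it was 1811, 3730 and 4594 with 1h replicate 1, 6h replicate 1 or 6h replicate 4 left out, and 2370, 2754, 2882, 3101 and 3292 in ethanol with 6h replicate 2, 1h replicate 2, 6h replicate 3, 6h replicate 1 or 1h replicate 3 left out.

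The whole distal stretch moved by a small amount against the rest of the promoter. The mean distal window signal minus that of other windows was 0.04 ± 0.02 at 6h (n = 8) and -0.03 ± 0.03 at 1h (n = 6), a difference of 0.07 log2 units (exact permutation test, two-sided, adjusted p = 0.0065 over 4 comparisons). It exceeded the 0h value of -0.01 ± 0.03 (n = 6) by 0.04 (exact permutation, adjusted p = 0.015), and by 0.03 without ethanol 0h replicate 2 (exact permutation, adjusted p = 0.027). Without carbohydrate 0h replicate 2 that difference was also 0.03 and did not pass (exact permutation, adjusted p = 0.053). Ethanol and carbohydrate arrays differed by 0.00 log2 units (exact permutation, adjusted p = 0.82). This measure was added after the window counts were seen. Within the largest run 6h exceeded 1h by 0.07 (exact permutation, adjusted p = 0.027).

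The falls from 1h to 6h were larger than the rises and hit the same first 2 genes in both diets. Plekhg2 came first. In its window on chromosome 1 from 83485614 to 83486005, the signal was -0.42, -0.69, -0.57 and -0.44 at carbohydrate 6h against 1.37, 1.11 and 0.59 at 1h, and the fitted difference was -1.55 ± 0.24 (SE, limma, adjusted p = 0.0016). With ethanol it was -0.37, -0.33, -0.52 and -0.01 against 1.67, 1.22 and 0.54, a difference of -1.45 ± 0.24 (limma, adjusted p = 0.0014). Lrfn4, a synaptic adhesion protein, came second, with -1.50 ± 0.23 in carbohydrate-fed rats (limma, adjusted p = 0.0016) and -1.20 ± 0.23 in ethanol-fed rats (limma, adjusted p = 0.0030). With carbohydrate these were followed by Guca2a, which encodes the gut peptide guanylin, Rufy1 and Rasgrp2, and with ethanol by Fgfrl1, a receptor of fibroblast growth factors, Bcl9l, a Wnt coactivator, and Sema4g, a semaphorin, with differences from -1.13 to -1.47.

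The largest rises reached about 1 log2 unit. With carbohydrate they were at Ccdc172 (1.02), Or6c69b (1.02), S100vp (1.01), Ly49si3 (0.99) and Or6c206 (0.94), where Ly49si3 belongs to a family of natural killer cell receptors and the Or genes encode olfactory receptors. With ethanol they were at Or1p1 (0.90), Or1p1e (0.88), Tgap1 (0.88), Kiaa1328 (0.86) and Bnc2 (0.82). At Or1p1 the ethanol 6h arrays read 0.22, 0.59, 0.44 and 0.35 against -0.37, -0.63 and -0.52 at 1h. At Tgap1 the window on chromosome 2 from 92162731 to 92163191 read 0.46, 0.83, 0.71 and 0.56 against -0.30, -0.28 and -0.13, and 8 arrays carried a distal peak over it. Windows were named only where the groups did not overlap, so that separation is no result. Each of these 10 kept its direction with the array run in the fit. Olfactory receptor genes of one cluster share sequence, so neighbouring windows such as those of Or1p1 and Or1p1e may not be independent.

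**Figure D4:**
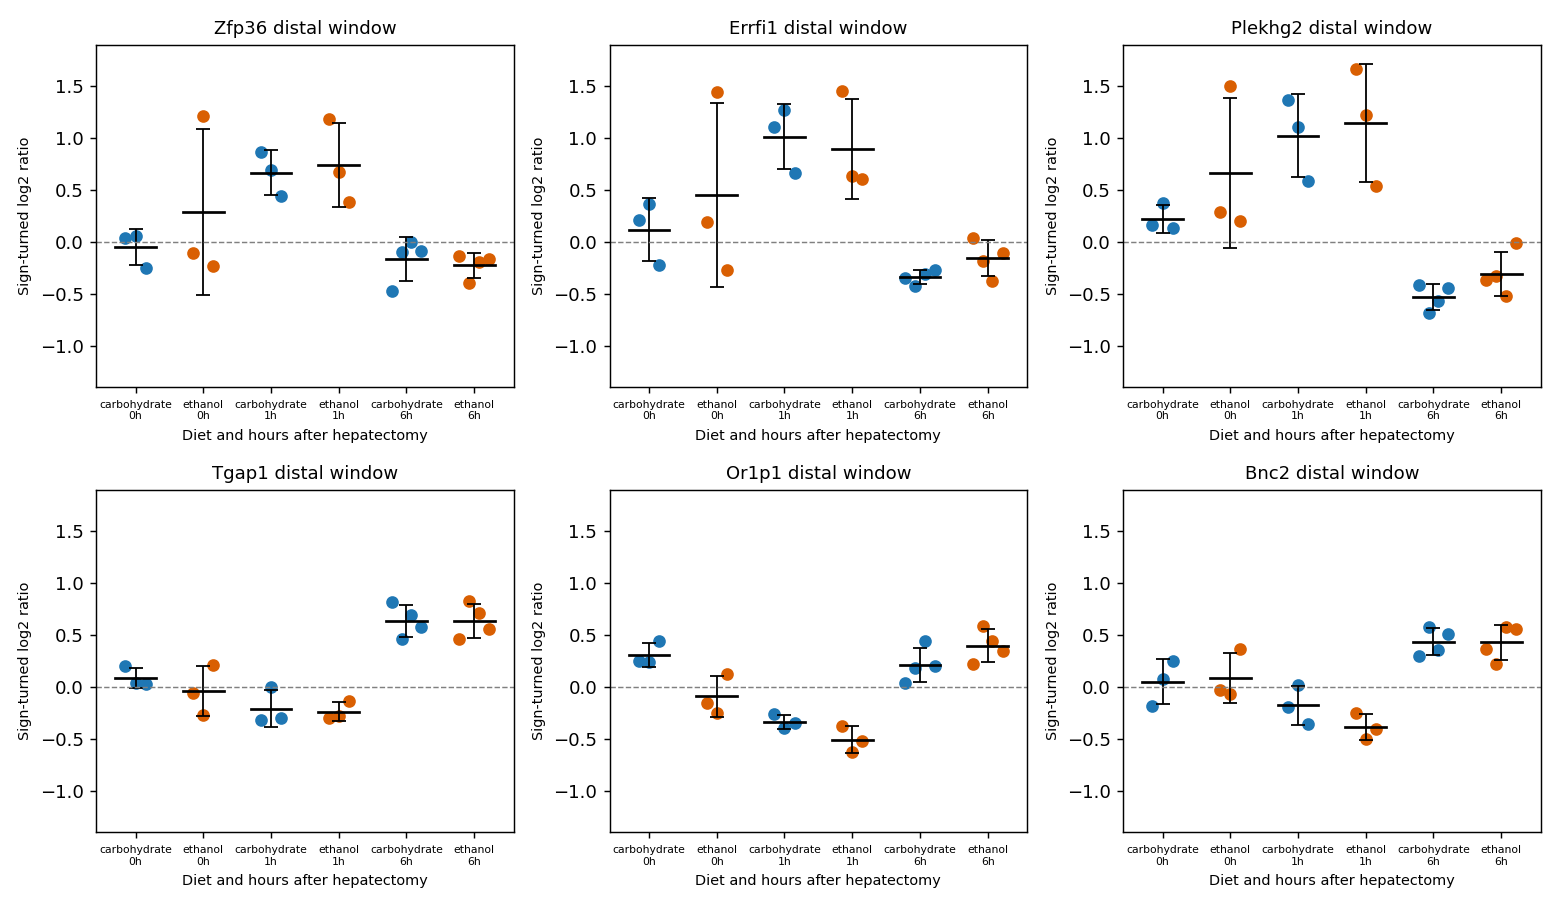
Signal of 6 distal windows on each array (y axis, sign-turned log2 ratio centred per array) by diet and hours after hepatectomy (x axis). Points are arrays, thick lines group means and bars 1 SD. Zfp36, Errfi1 and Plekhg2 are high at 1h and low at 6h, with ethanol 0h replicate 2 as the one high point at 0h, at 1.21 for Zfp36 and 1.44 for Errfi1, and Tgap1, Or1p1 and Bnc2 are higher at 6h than at 1h. The windows were chosen for these differences.

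Immediate early genes, which cells switch on within minutes of a stimulus, carried distal peaks mainly at 1h. The 34 of them on the arrays had a distal peak in 26.5%, 29.4% and 44.1% of cases on the carbohydrate 1h arrays and in 41.2%, 32.4% and 52.9% on the ethanol 1h arrays. At 6h the share ran from 0% to 8.82% over 8 arrays. At 0h it was 11.8%, 11.8% and 2.94% with carbohydrate and 14.7%, 44.1% and 2.94% with ethanol, and the highest of these is again ethanol 0h replicate 2. Over all 14356 genes the mean share was 9.89% at 0h, 13.4% at 1h and 13.2% at 6h. All 6 arrays of 1h were above all 8 of 6h for this list.

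Olfactory receptor genes, which are known for their role in the nose, ran the other way. A distal peak was called for 2.61%, 1.10% and 0.842% of the 1187 genes on the carbohydrate 1h arrays and for 1.43%, 0.758% and 0.590% on the ethanol 1h arrays. At 6h the share was 16.2%, 12.5%, 14.1% and 14.8% with carbohydrate and 15.9%, 25.6%, 24.5% and 15.5% with ethanol. At 0h it spread from 1.85%, on ethanol 0h replicate 2, to 20.3%. The family was singled out after the data were seen.

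**Figure D5:**
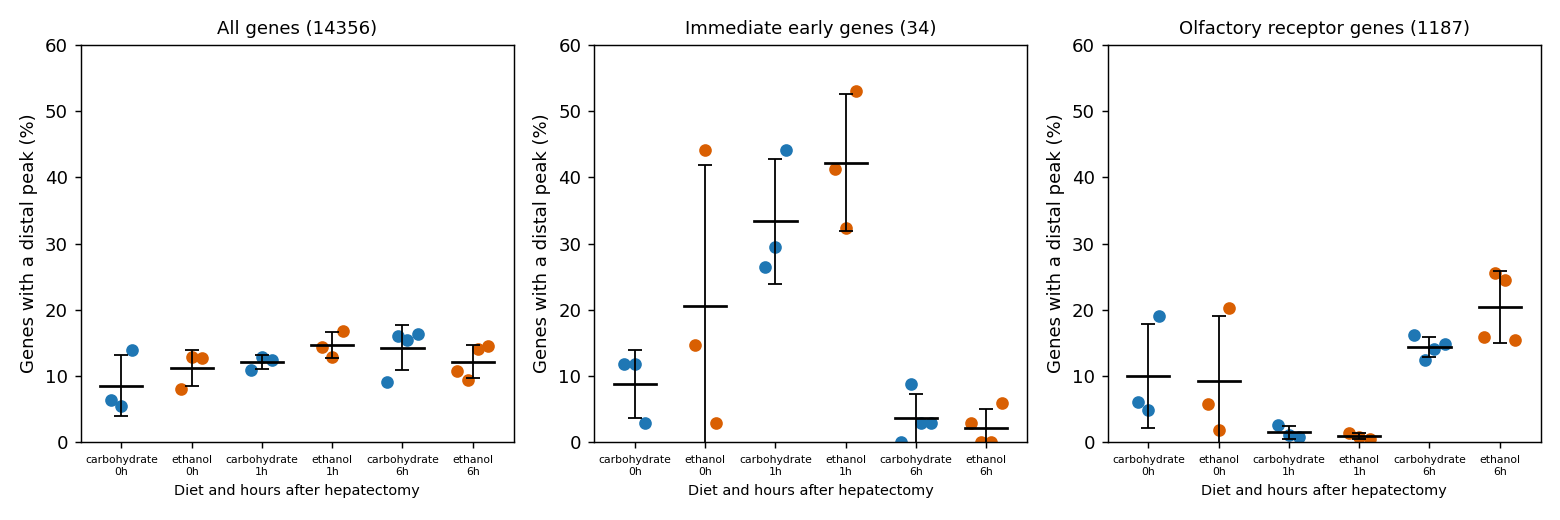
Genes with a distal peak on each array, in percent (y axis), for all genes and for immediate early and olfactory receptor genes, by diet and hours after hepatectomy (x axis). Points are arrays, thick lines group means and bars 1 SD. Immediate early genes peak at 1h (26.5% to 52.9%) and are at 8.82% or lower at 6h, and olfactory receptor genes are at 2.61% or lower at 1h and at 12.5% or higher at 6h.

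The window fit gave the same order for these genes. From 1h to 6h, 28 of the 147 distal windows of immediate early genes fell and 3 rose with carbohydrate, and 43 fell and 1 rose with ethanol. The falls are 19.0% and 29.3% of the windows, against 6.02% and 3.29% of all distal windows. The median difference was -0.15 and -0.20, against 0.04 and 0.04 over all distal windows. Errfi1 fell by 1.35 with carbohydrate, from 1.11, 1.27 and 0.66 to -0.35, -0.43, -0.31 and -0.27, and by 1.05 with ethanol (limma, adjusted p = 0.0029 and 0.011). Zfp36 fell by 0.83 and 0.97 (limma, adjusted p = 0.017 and 0.0083). Dusp5, a MAP kinase phosphatase, and Per1, a clock gene, fell by 1.15 and 0.97 with carbohydrate, and Igfbp1, a liver-secreted IGF binding protein, and Zfp36l1 by 0.97 and 0.78 with ethanol. Of the 4219 distal windows of olfactory receptor genes 1165 rose and 56 fell with carbohydrate, and 1369 rose and 2 fell with ethanol, with medians of 0.26 and 0.31. The rises are 27.6% and 32.4% of the windows, against 9.57% and 7.40% of all distal windows. The falls are 1.33% and 0.0474%, against 6.02% and 3.29%.

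Acute phase and complement genes also fell at more distal windows than they rose. Most of them encode proteins that hepatocytes secrete into plasma, but the list also holds the metallothionein genes Mt1 and Mt2A. Of 97 windows 13 fell and 2 rose with carbohydrate, and 18 fell and none rose with ethanol, with medians of -0.12 and -0.17. The falls are 13.4% and 18.6% of the windows, against 6.02% and 3.29% of all distal windows. Fga and Fgb, which encode fibrinogen chains, fell by 0.64 each with ethanol (the Fgb window is shared with Plrg1), Hamp, the iron hormone hepcidin, by 0.63, and Hp, haptoglobin, by 0.58 (limma, adjusted p from 0.0022 to 0.0098). Apcs, another plasma protein of the list, rose by 0.60 with carbohydrate. A distal peak at Fga was called on 6 of 6 arrays at 1h and on none of 8 at 6h.

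Liver transcription factors fell at 12 of 88 distal windows and rose at 2 with carbohydrate, and fell at 14 and rose at none with ethanol, so 13.6% and 15.9% fell, against 6.02% and 3.29% of all distal windows. Prox1, which marks the hepatocyte lineage, fell by 0.86 and 0.93, and Rxra, the partner of many liver nuclear receptors, by 0.56 and 0.66. Cebpb fell by 0.81 with ethanol. Lipid and glucose genes fell at 10 of 97 windows and rose at 2 with carbohydrate, and fell at 11 and rose at none with ethanol, among them Cpt1a, which admits fatty acids to mitochondria (fell by 0.62 and 0.73). The falls of the lipid and glucose list are 10.3% and 11.3% of its windows. Of the 107 windows of alcohol and xenobiotic genes 6 fell and 1 rose with carbohydrate, and 4 fell and 2 rose with ethanol. The falls, 5.61% and 3.74%, were near the share of all distal windows, and the rises, 0.935% and 1.87%, were under the 9.57% and 7.40% of all distal windows. Hmox1, heme oxygenase, fell by 0.90 with carbohydrate, and Gclc, of glutathione synthesis, by 0.49 with ethanol. At Ephx1, an epoxide hydrolase, 2 windows went apart: one at -3792 bp fell by 0.60 with carbohydrate, and one at -2824.5 bp rose by 0.62 with ethanol. Cell cycle and growth factor genes rose at 8 of 93 windows and fell at 1 with carbohydrate, led by Egfr (0.61) and Ccna2 (0.56), and rose at 2 with none falling with ethanol, where Hgf rose by 0.39. The rises, 8.60% and 2.15%, did not exceed the 9.57% and 7.40% of all distal windows, and the falls, 1.08% and 0%, were fewer. Neuronal genes rose at 16 of 114 and fell at 6 with carbohydrate, and rose at 10 and fell at none with ethanol, so 14.04% and 8.77% rose and 5.26% and 0% fell.

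Known NF-kB target genes rose and fell at similar numbers of windows. Junb and Ier3 of this list are also in the immediate early list. Of their 132 distal windows 9 rose and 11 fell with carbohydrate (medians 0.00 against 0.04 over all distal windows), and 8 rose and 9 fell with ethanol (medians -0.08 against 0.04). The rises were 6.82% and 6.06%, against 9.57% and 7.40% of all distal windows, and the falls 8.33% and 6.82%, against 6.02% and 3.29%. Tnip1, an inhibitor of the pathway, fell by 0.67 with carbohydrate, Bcl2l1, a survival factor, by 0.55 and Irf1 by 0.51, while Sod2, the mitochondrial superoxide dismutase, rose by 0.51. With ethanol Junb fell by 0.59, Nfkbia, the inhibitor that NF-kB itself induces, by 0.48 and the chemokine gene Cxcl1 by 0.43, while the chemokine gene Ccl20 rose by 0.62. Distal peaks at targets recurred at Il6 on 12 arrays, Ccl5 on 10, Vcam1 on 9 and Birc3 on 8. At Vcam1, an adhesion molecule of endothelium, they were called on 3 arrays at 0h, none at 1h and 6 at 6h. Of the 36 targets on the arrays 4 (11.1%) had a distal peak on at least 8 arrays, against 6.54% of all genes.

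Markers of the cell types in liver were read the same way, since every cell carries the DNA of all of them. Hepatocyte markers had a distal peak in 28.6% to 57.1% of 7 genes on the 1h arrays and in 0% to 42.9% on the 6h arrays. Kupffer cell and macrophage markers had one in 16.7% to 50.0% of 6 genes at 1h and in 0% to 33.3% at 6h. Over all genes the mean share was 13.4% at 1h and 13.2% at 6h. From 1h to 6h, 10 of 32 distal windows of hepatocyte markers fell and 1 rose with ethanol, and 4 fell and 1 rose with carbohydrate. The lists share genes: Alb and Ttr are also in the acute phase list and Tat in the lipid and glucose list. Counts of these lists are therefore partly of the same windows. The falls are 31.25% and 12.5%. Over all distal windows 7.40% rose and 3.29% fell with ethanol, and 9.57% rose and 6.02% fell with carbohydrate. Of 19 windows of Kupffer cell and macrophage markers 3 fell and 1 rose with carbohydrate and none passed with ethanol. For stellate cell markers 2 of 31 fell and 2 rose with carbohydrate, and 1 fell and none rose with ethanol. The falls, 6.45% and 3.23%, were near the share of all distal windows. For sinusoidal endothelium 1 of 13 fell with carbohydrate, at Pecam1, and 1 rose with ethanol, where a single window is 7.69% of the list. For cholangiocytes 5 of 13 rose and none fell with carbohydrate, and none passed with ethanol. For lymphocytes and neutrophils 1 of 33 fell and 2 rose with carbohydrate, and 4 rose and none fell with ethanol. The rises are 6.06% and 12.1%, the first below the share of all distal windows and the second above it. The part of changes in cell composition in these results was not tested. Among markers distal peaks were called on the most arrays at Cd68, a macrophage lysosomal protein, on 13, and at Reln, a stellate cell gene, on 11. Of the liver factors Atf4 had them on 12 arrays, and Hnf4a and the xenobiotic receptor gene Nr1i2 on 10, as had Egf.

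Counts in comparisons with 0h changed with the array run in the fit and with single arrays left out. The run of the other 5 arrays of 0h holds no other time, so the run term reaches it only through ethanol 0h replicate 2. That array resembles 1h, so the fits with the run cannot tell run from time here. With carbohydrate, 2062 distal windows rose and 2317 fell from 0h to 1h, where 8.73% of all windows were called, 4.2% rising and 4.53% falling. With the run as a term in the fit 11 rose and 21 fell. Leaving out carbohydrate 1h replicate 2 left 19 windows, and leaving out 0h replicate 3 left 260. With 0h replicate 1, 0h replicate 2 or 1h replicate 1 left out, between 1351 and 1625 remained past the test. From 0h to 6h, 1461 rose and 697 fell, where 5.54% of all windows were called, 3.13% rising and 2.41% falling. With the run in the fit 23 rose and 39 fell, and with the arrays scaled to one spread 2401 rose and 1799 fell. No distal window passed without carbohydrate 0h replicate 2, 107 did without carbohydrate 0h replicate 1, and from 698 to 1434 did without any 1 of the 4 arrays of 6h.

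With ethanol no distal window passed from 0h to 1h or from 0h to 6h in limma, where 0.00441% (0.00368% rising) and 0% of all windows were called, although 5652 and 8270 had an unadjusted p under 0.05. Without ethanol 0h replicate 2, the array that resembles 1h, 619 distal windows rose and 813 fell from 0h to 1h, and none passed from 0h to 6h. Without ethanol 1h replicate 1, 2886 passed from 0h to 1h, and without ethanol 0h replicate 3, 2063 passed from 0h to 6h.

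The largest named changes from 0h to 1h with carbohydrate moved with the run in the fit, and some changed sign. As above, that run term rests on ethanol 0h replicate 2, so these values do not separate run from time. Lrfn4 rose from -0.54, -0.19 and -1.02 to 1.01, 1.03 and 0.90, a difference of 1.57 ± 0.25 (limma, adjusted p = 0.0077), which was 0.42 with the run. Trpv1, a heat-gated channel, rose by 1.35 and stood at -0.05 with the run. The falls were led by Or6c69d (fell by 0.86), which was -1.64 with the run and passed there too (limma, adjusted p = 0.0075). Immediate early genes rose at 15 of 147 distal windows (10.2%) and fell at none. Olfactory receptor genes fell at 795 of 4219 (18.8%) and rose at 37 (0.877%). Of all distal windows 4.41% rose and 4.95% fell. Neither count was taken with the run. From 0h to 6h the leading changes were at Camk1g, a calmodulin-dependent kinase (1.07), Gfra3, a neurotrophic factor receptor (0.97), and Bmi1, a Polycomb subunit (-1.01), where Bmi1 read -0.26, -0.50, -0.31 and -0.29 at 6h against 0.66, 0.64 and 0.72. With the run these were 0.26, 1.03 and -0.23, none past the test.

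Between the diets no distal window passed at 0h, 1h or 6h in limma, where 0%, 0.000735% and 0% of all windows were called. At an unadjusted p under 0.05 there were 2955, 3273 and 2935 of 46793. No distal window passed for a diet difference in the change from 0h to 1h or from 0h to 6h either (0% of all windows called for both), with 4640 and 3891 at an unadjusted p under 0.05. At 1h, 349 distal windows passed without ethanol 1h replicate 1, and 444 passed in the largest run alone, a setting with 2 arrays a diet. The arrays of 1h share slides between the diets, and with slide as a block 63 distal windows passed in a fit of the 1h arrays alone and 5 with slide as a random block over all arrays. Without ethanol 1h replicate 1, 272 passed for the diet difference in the change to 1h. Regions with distal peaks on all ethanol arrays and no carbohydrate array numbered 33 at 0h, 41 at 1h and 7 at 6h, and the reverse pattern 21, 30 and 20. By the same rule over peaks at any distance, 0.549%, 1.84% and 0.0742% of the tiled regions with a peak met the first pattern and 0.801%, 0.43% and 0.349% the second. The counts at 0h were 109 and 23 without ethanol 0h replicate 2. Over all distal windows the median difference between diets was 0.00, 0.01 and 0.01 log2 units at 0h, 1h and 6h.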

How the data were processed

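Each sample was a 2-colour promoter array with p65 ChIP DNA in Cy5 and input DNA in Cy3 per the labels' channel fields. The labels' labelling text names IgG-precipitated DNA in Cy3, so the reference is not settled. The authors deposited a peak list per array, with a score and a false discovery rate (q-value) per peak and distances to starts per the file headers, and a table of log2 ratios per probe. Peak caller, settings and genome build are not given in the sources used here. Positions are as deposited.

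Ratios were multiplied by -1, centred on each array's median and averaged in windows of 500 bp with at least 4 probes. Windows were fitted over all 20 arrays with limma 3.58.1 (R 4.3.3, trended eBayes) and adjusted by Benjamini-Hochberg over 136025 windows, with a threshold of 0.05. Window starts were known only where a peak listed them, and 7400 windows without one were not classed. Peak measures were compared over arrays by exact permutation, two-sided, adjusted over 25 comparisons, and within arrays by 100000 sign flips. Overlaps were found with bedtools 2.31.1.

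RefSeq names matched 13670 of 14678 accessions. The median SE of a difference was 0.13 log2 units for 3 against 3 arrays, and their number limits the precision. No label says that replicates of a group are separate animals beyond the animal numbers in the array identifiers.

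Named genes were the 15 regions with distal peaks on the most arrays, the 5 largest rises and falls per comparison among windows whose groups did not overlap, list members past the test (up to 4 per list) or on at least 8 arrays, up to 5 regions per pattern of time, and the 5 highest scores. Single examples for the text were drawn from these. The members and lists were chosen with earlier results of these data known. The arrays of the 4 animals sampled at 0h and again after surgery were taken as independent. Whether they deviate together was not examined. Same-numbered replicates, which are not from the same animal in any comparison, were not treated as pairs. Between the diets at 1h, where they share a slide, the correlations of their deviations were 0.61, 0.075 and 0.21, which is not above 0.1 for every pair, and in each other comparison at least 1 pair was under 0.1.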

Additional observations from a re-analysis of the deposited data

Results flagged for a closer look

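In groups of 4 arrays, the gap between the most extreme array and its nearest neighbour was compared with the range of the group. In 7 of 114 groups this ratio was above Dixon's critical value, which chance alone exceeds in about 1 in 20 groups.

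Carbohydrate 6h replicate 1, the only member of its array run, had 1347 distal peaks against 2297 to 2454 on the others (ratio 0.858). Its median distal length was 638 bp against 540 to 556 bp (ratio 0.837). The distal peaks of ethanol 6h replicate 2 overlapped a peak on 1.75 other arrays on average, against 2.37 to 2.49 (ratio 0.836).

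At the Or6c69d window ethanol 6h replicate 4 read -0.27 against 0.26 to 0.35 (ratio 0.861). At the Or4g17 window carbohydrate 6h replicate 1 read -0.08 against -0.51 to -0.44 (ratio 0.845). At the Guca2a window ethanol 6h replicate 3 read -0.95 against -0.23 to -0.14 (ratio 0.886). At the peak of Caskin1 and Mlst8 carbohydrate 6h replicate 4 read 0.96 against 0.43 to 0.50 (ratio 0.878).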

How the results depend on the processing

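The higher distal share at 6h than at 1h kept its direction under every alternative run, but not its call. The difference was 6.93 points with the bound at -1500 bp (exact permutation, adjusted p = 0.061), 4.43 with at least 1 feature beyond the bound (0.19), 4.83 over peaks with a false discovery rate of 0.05 or lower (0.18), 7.11 over the 2500 highest scoring peaks (0.12) and 8.40 on the largest run alone (0.16). With the bound at -2500 bp the share at 6h passed against 0h, at 5.03 points (exact permutation, adjusted p = 0.031). Same-numbered replicates did not deviate together in every pair, and with a replicate block the share difference between 6h and 1h was 6.18 points (exact permutation, adjusted p = 0.47), the median score differed by -0.00791 between the diets, and 1 distal window passed from 0h to 1h and 190 from 0h to 6h with ethanol. With the 1h arrays alone and the replicate block, which there is also the slide, 63 windows differed between the diets.

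The within-array difference in median length, distal minus other, was 6.33 bp with the bound at -1500 bp, -6.93 bp at -2500 bp, 1.40 bp with at least 1 feature beyond the bound, 26.3 bp over peaks with a false discovery rate of 0.05 or lower and 4.05 bp over the 2500 highest scoring peaks, so its direction depends on these choices. Differences that did not pass the test and turned in sign were the share from 0h to 1h with at least 1 feature beyond the bound (0.597 points), the median score over peaks with a false discovery rate of 0.05 or lower (-0.0209 from 0h to 6h and -0.00417 between the diets), and the number of distal peaks among the 2500 highest scoring (-69.0 from 0h to 1h and 178 from 1h to 6h). On the largest run alone the diet differences turned to -2.87 points in share, -94.2 in number, -0.0170 in median score, 17.8 bp in median length and -0.0114 in window signal, distal minus other. The cause of these turns was not tested.

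The number of distal windows called moved with the array run and with single arrays. Shares over all windows were not taken in these fits, so the counts do not single out distal windows. For comparisons with 0h the run term has the limit given above. With the run as a term it was 32 from 0h to 1h and 62 from 0h to 6h with carbohydrate, 91, 711 and 8986 with ethanol (0h to 1h, 0h to 6h and 1h to 6h), and 55 between the diets at 1h. The largest run alone gave 9128 from 1h to 6h with ethanol, and 444 at 1h and 5 at 6h between the diets. Scaling arrays to the same spread gave 4200 (0h to 6h) and 3724 (1h to 6h) with carbohydrate, 1437 (0h to 6h) with ethanol and 1 between the diets at 0h. Slide as a random block gave 2462 (0h to 1h) and 1277 (0h to 6h) with carbohydrate, 10 (0h to 1h) with ethanol and 5 between the diets at 1h. Windows of 1000 bp gave 1355 (0h to 6h) and 4406 (1h to 6h) with carbohydrate and 8 (0h to 1h) with ethanol, and could not be matched to the named windows. Fitting only the arrays compared gave 6383 from 0h to 6h with carbohydrate.

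With the array run as a term, 48 of 49 named windows lost the call from 0h to 1h with carbohydrate. Of these, 13 turned in sign. From 0h to 6h 38 of 38 lost it and 8 turned in sign. In comparisons with 0h that term rests on ethanol 0h replicate 2, the array that resembles 1h. It therefore does not separate run from time there. From 0h to 1h the log2 changes that turned were -0.046 at Trpv1, 0.012 at Or2ag2 and Or2d3, 0.089 at Or5ac21, -0.30 at Flot1 and Ier3, -0.26 at Errfi1, -0.23 at Igfbp1, -0.26 at Alb, -0.38 at Tat, -0.16 at Cdkn1c, -0.071 at Ccne1, -0.24 at Prox1, 0.0014 at Cyp2e1 and 0.19 at Lrat. From 0h to 6h they were -0.45 at Rin1, 0.13 at Or5h25d, 0.084 at Il1b, -0.21 at Gsta2, -0.013 at Ccne1, 0.085 at Kcna1, 0.19 at Nlgn1 and 0.10 at Gzma. None of the named windows from 1h to 6h turned, in either diet, under the alternatives run.

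Leaving out each array in turn, the share difference ranged from 5.18 to 8.28 points (1h to 6h), 3.58 to 7.27 (0h to 6h) and -2.96 to 0.729 (0h to 1h). The median score difference ranged from -0.0365 to 0.0255 between the diets, -0.0182 to 0.0645 (0h to 6h) and -0.119 to -0.0474 (1h to 6h), the median length from -10.8 to 15.8 bp (0h to 1h) and -14.6 to 3.82 bp between the diets, and the number from -122 to 69.1 (1h to 6h). The window signal, distal minus other, ranged from -0.0030 to 0.0109 between the diets and 0.0341 to 0.0524 (0h to 6h). Distal windows called ranged from 19 to 4556, 0 to 3129 and 1811 to 5652 with carbohydrate (0h to 1h, 0h to 6h and 1h to 6h), from 0 to 2886, 0 to 2063 and 2370 to 4575 with ethanol, from 0 to 349 between the diets at 1h and from 0 to 272 for the diet difference in the 1h change.

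The window signal of distal minus other windows, the largest run alone, the replicate block on the 1h arrays alone and the region counts, pair shares, densities and levels without ethanol 0h replicate 2 or by run were chosen after seeing the data. Keeping the deposited sign of the ratios would mirror every window change.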
